A study of Mus musculus with 18 samples.

Results

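The 7 genes described here, Mcts2, Nap1l5, Inpp5f, Zrsr1, Nnat, Gnas and Cdh15, are imprinted loci of several kinds: retrogenes, promoters within introns, and the multi-promoter Gnas locus. They were chosen by name out of 49939 mouse genes in the RefSeq table. For each gene, the H3K4me3 peaks over the gene and 5 kb on either side were summed as covered bp in each of 9 libraries, and the highest fold enrichment of any peak there was taken. All 7 genes were among the 34675 genes with a peak in their window in at least 3 libraries, which were the genes tested, and all 7 had a peak in every library. By annotated spans, Mcts2 lay inside H13, Nap1l5 inside Herc3, Zrsr1 inside Commd1 and Nnat inside Blcap, whereas Inpp5f, Gnas and Cdh15 did not lie inside another gene.

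H3K4me3, a histone mark of active and poised promoters, was mapped by CUT&RUN: a nuclease tethered to an antibody cuts out the chromatin around the mark. The cells were mouse prospermatogonia, the fetal male germ cells, sorted as Oct4-GFP+ at E17.5, late in gestation, frozen before nuclei were extracted, with 4000 nuclei per library. The 3 genotypes were Tet1-/- (KO), Tet1HxD/HxD (HxD), whose altered HxD motif is known to abolish catalysis by the TET1 dioxygenase, and Tet1+/+ (WT), each with 3 libraries called biological replicates in the labels and all of the same labelled batch. All carried the reporter sort and the same freezing medium. A peak list of a histone mark does not read the Tet1 alleles, so the genotypes rest on the labels.

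The lists differed in length between genotypes. They held 69901 to 80232 peaks in KO libraries and 49624 to 67925 in HxD libraries, against 83586 to 128701 in WT libraries, and covered 50.5 to 73.0 Mb in KO and 45.6 to 69.3 Mb in HxD, against 76.6 to 108.9 Mb in WT. Over all genes tested the median log2 difference in covered bp was -0.20 for KO against WT, -0.36 for HxD against WT and 0.15 for KO against HxD. Differences of single genes are to be read against those shifts. Read depth was not analysed here. Of 9 germ cell marker genes, 7 had peaks in all 9 libraries, and their summed coverage was 20566 to 31206 bp in KO, 15901 to 25206 bp in HxD and 15717 to 22039 bp in WT. Peaks also lay over 5 of 5 Sertoli markers in all 9 libraries (14585 to 22534 bp in KO, 16185 to 22405 bp in HxD, 21872 to 26715 bp in WT). They lay over 3 of 6 Leydig and interstitial markers, with Cyp17a1 at 0 (9939 to 17541 bp in KO, 12071 to 16074 bp in HxD, 15739 to 23629 bp in WT). They lay over 5 of 6 endothelial and blood markers (9024 to 15759 bp in KO, 10239 to 15819 bp in HxD, 19191 to 23497 bp in WT). The part of other cell types and of list length in the differences given here was not tested.

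At many imprinted promoters, a parental copy carries DNA methylation set in a germ cell, and the other copy is active. Nearly all of these promoters are known to receive their methylation in the oocyte, from transcripts that run across them, and to stay unmethylated in the male germline. In prospermatogonia, de novo DNA methylation spreads over most of the genome, while DNMT3L and its partners bind histone H3 tails only where lysine 4 is unmethylated, so chromatin with H3K4me3 is disfavoured for it. TET1 is one of the enzymes that oxidise methylated cytosine. ZFP57, a zinc finger protein, keeps the methylated copy of many imprinted regions methylated in the embryo, binding TGCCGC where it is methylated.

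Promoter sequences of some of these genes follow, and not all were covered by peaks in every library. Each is the RefSeq (GRCm38.p6) window from 250 bases before to 50 bases after an annotated start, 5′ to 3′, with TGCCGC, or GCGGCA where it lies on the other strand, in capitals. Mcts2 lies at chr2:152686898-152687197 (plus strand), Nap1l5 at chr6:58907077-58907376 (minus), Nnat at chr2:157559828-157560127 (plus), the Gnas start shown, at the position of exon 1A, at chr2:174327499-174327798 (plus) and Cdh15 at chr8:122848124-122848423 (plus). The first 3 are shown as the members whose window holds the motif, and the Cdh15 window for contrast, as the CpG-poorest of the members. The Gnas window is shown because it lay inside a region that was broader in every KO than in any WT library. All 300 bases of this Gnas window were covered in each of the 9 libraries. Regions at the Inpp5f and Zrsr1 starts were also broader in every KO library, and their sequences are not shown.
Mcts2: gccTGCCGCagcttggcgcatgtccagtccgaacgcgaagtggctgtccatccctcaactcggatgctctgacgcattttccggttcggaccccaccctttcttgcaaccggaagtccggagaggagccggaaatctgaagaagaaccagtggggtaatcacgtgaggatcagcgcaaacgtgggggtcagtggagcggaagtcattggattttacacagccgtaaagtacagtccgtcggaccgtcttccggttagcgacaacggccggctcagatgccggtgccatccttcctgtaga
Nap1l5: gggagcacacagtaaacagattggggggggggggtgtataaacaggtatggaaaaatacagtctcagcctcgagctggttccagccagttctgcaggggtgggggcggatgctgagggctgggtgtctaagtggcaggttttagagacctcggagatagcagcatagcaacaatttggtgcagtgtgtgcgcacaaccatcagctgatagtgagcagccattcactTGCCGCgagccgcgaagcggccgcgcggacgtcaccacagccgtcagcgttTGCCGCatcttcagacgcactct
Nnat: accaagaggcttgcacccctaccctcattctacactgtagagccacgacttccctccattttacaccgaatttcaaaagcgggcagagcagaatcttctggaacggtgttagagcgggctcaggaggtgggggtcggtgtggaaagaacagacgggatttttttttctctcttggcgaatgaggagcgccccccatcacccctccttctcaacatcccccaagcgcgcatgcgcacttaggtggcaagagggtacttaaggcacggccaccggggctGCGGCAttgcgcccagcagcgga
Gnas: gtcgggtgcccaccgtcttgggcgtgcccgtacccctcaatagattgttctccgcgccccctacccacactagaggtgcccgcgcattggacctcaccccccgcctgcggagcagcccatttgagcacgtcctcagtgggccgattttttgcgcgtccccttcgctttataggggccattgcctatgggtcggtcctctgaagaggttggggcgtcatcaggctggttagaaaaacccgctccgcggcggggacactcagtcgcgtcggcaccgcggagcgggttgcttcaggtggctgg
Cdh15: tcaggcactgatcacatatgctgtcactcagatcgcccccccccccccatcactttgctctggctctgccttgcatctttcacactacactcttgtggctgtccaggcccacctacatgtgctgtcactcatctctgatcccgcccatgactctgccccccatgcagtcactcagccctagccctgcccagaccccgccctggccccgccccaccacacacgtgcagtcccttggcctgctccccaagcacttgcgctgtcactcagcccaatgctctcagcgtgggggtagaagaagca

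All 7 genes matched the promoter table, with 10 windows between them. The motif was found in 3 of the 10, against 11.6% of all 32851 RefSeq promoter windows and 20.8% of the 5988 windows covered by peaks in all 9 libraries, where covered means at least 150 of 300 bases. Nap1l5 had 2 copies, which 1.53% of all windows reached. CpG dinucleotides numbered 25 in the Mcts2 window, 17 in Nap1l5, 15 in Inpp5f, 10 in Zrsr1, 17 in Nnat and 7 in Cdh15, where the median of all windows was 7 and that of the covered windows 21. In Gnas they numbered 16 at the first start, 27 at the start shown and 40 at the start farthest downstream. The windows of Nap1l5, Zrsr1, Nnat and the 2 overlapping Gnas windows near 43.4 kb were covered in all 9 libraries, making 5 of 10 against 18.2% of all windows. The Cdh15 window was covered in 3 of 9 libraries.

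**Figure D1:**
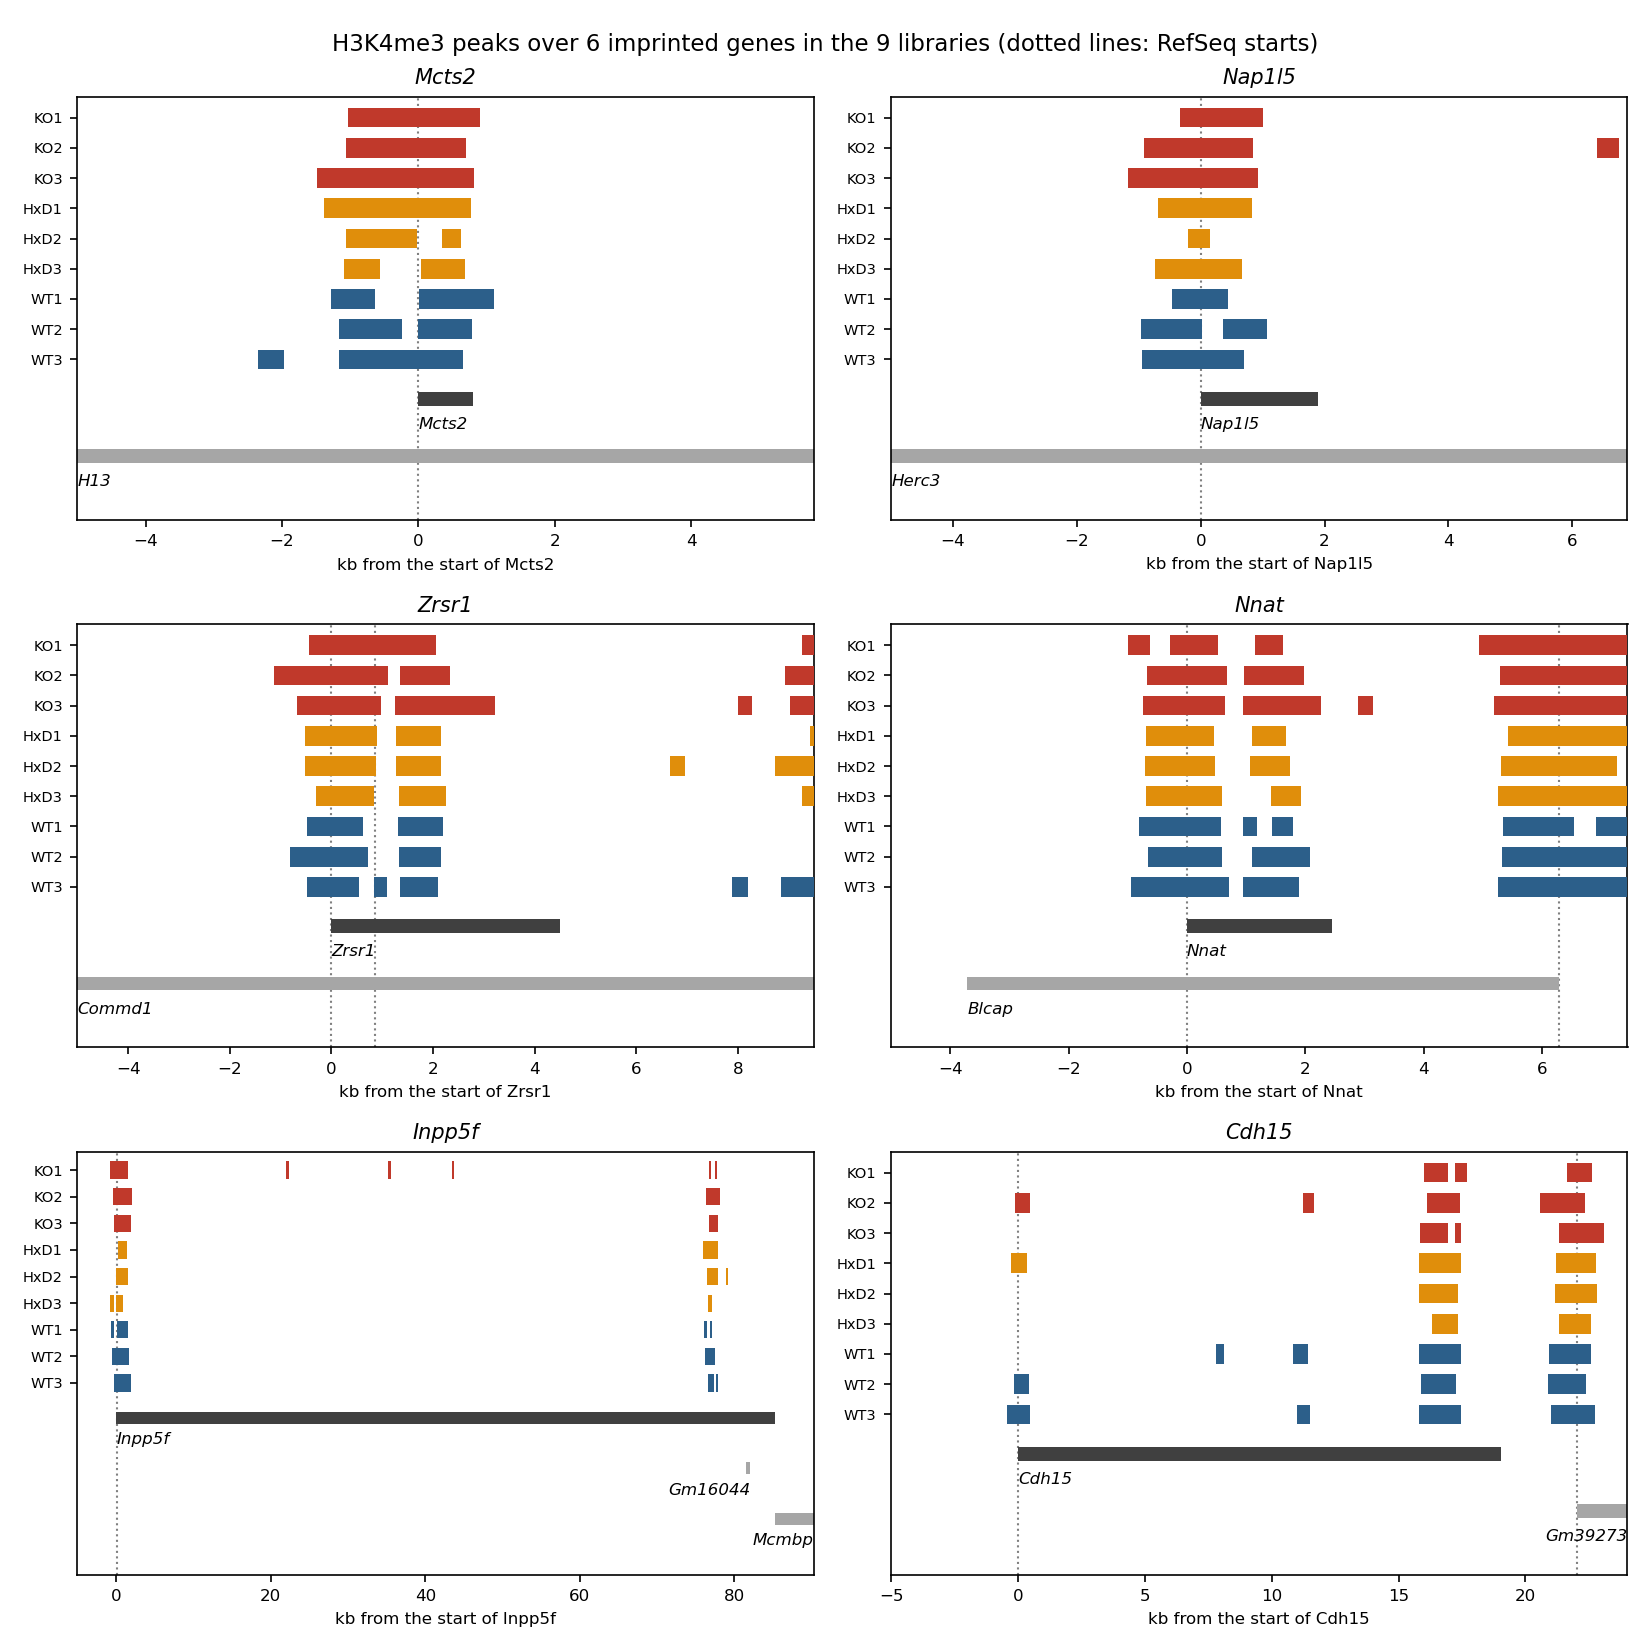
Peaks of each library (coloured bars, rows; KO red, HxD orange, WT blue) against distance in kb from the start of each gene, with the gene (dark bar), overlapping genes (grey bars) and RefSeq starts (dotted lines). Peaks sit on the starts of Nap1l5, Zrsr1 and Nnat in all 9 libraries, on or beside those of Mcts2 and Inpp5f, on a second site within Inpp5f, and near the 3′ end of Cdh15 in all 9 libraries, where its annotated start had a peak in 4 of them.

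Mcts2 is a retrocopy of X-linked Mcts1, whose family acts in translation reinitiation, and lies at chr2:152687148-152687946 inside H13, the signal peptide peptidase gene. Its window held 1943, 1759 and 2307 covered bp in KO libraries, 2161, 1322 and 1173 bp in HxD libraries, and 1753, 1717 and 2207 bp in WT libraries. The genotypes overlapped, with HxD replicates 2 and 3 lowest. Peaks formed 1 region in all 9 libraries, from -1490 to 1114 bp relative to the start. As the map of peaks shows, this region was 1 unbroken peak in all 3 KO libraries, in HxD replicate 1 and in WT replicate 3, and 2 peaks, one upstream and one at or just downstream of the start, in the other libraries. The promoter window was covered in 6 of 9 libraries. Its highest fold enrichment was 7.86, 4.08 and 11.9 in KO, 16.0, 9.31 and 7.37 in HxD, and 10.1, 6.96 and 15.1 in WT, also overlapping. Fold enrichment here and throughout is the authors' own value per peak, given as a description.

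Nap1l5, a nucleosome assembly protein-like retrogene, lies on the minus strand at chr6:58905233-58907126 inside the ubiquitin ligase gene Herc3. Its window held 1348, 2110 and 2110 covered bp in KO libraries, 1520, 365 and 1407 bp in HxD libraries, and 904, 1710 and 1649 bp in WT libraries. The lengths overlapped, with HxD replicate 2 far below the rest, and Nap1l5 had the largest spread over the 9 libraries of the 7 genes, a coefficient of variation of 38.1%. Fold enrichment separated the genotypes more than length did. It was 11.8, 15.6 and 21.3 in KO libraries, against 4.23, 4.42 and 7.56 in HxD libraries and 4.18, 5.84 and 7.71 in WT libraries. Every KO value lay above every HxD and every WT value.

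Zrsr1, a retrocopy of X-linked Zrsr2 and a relative of the splicing factor U2AF, lies at chr11:22972005-22976496 inside Commd1, a gene of copper and protein trafficking. Its window held 2723, 3767 and 4368 covered bp in KO libraries, 2381, 3354 and 2280 bp in HxD libraries, and 1997, 2386 and 2974 bp in WT libraries. KO was highest on average, and its replicate 1 overlapped the others. Overlapping the window were 2 regions with peaks in all 9 libraries. One covered the Zrsr1 start and an alternative Commd1 start 0.861 kb downstream, with 2495, 3207 and 3622 bp in KO, 2312, 2286 and 2046 bp in HxD, and 1997, 2386 and 2025 bp in WT. There every KO library lay above every HxD and every WT library. Its highest fold enrichment was 13.01, 19.6 and 23.7 in KO, 16.4, 11.7 and 11.5 in HxD, and 8.63, 12.3 and 12.4 in WT, with every KO value above every WT value. The other region, at the main Commd1 start, ran past the end of the window, and its peaks in WT replicates 1 and 2 lay wholly outside it. Its full coverage, inside and outside the window, was 1237, 2020 and 2033 bp in KO, 1380, 2018 and 1656 bp in HxD and 487, 1549 and 1656 bp in WT, with overlap between genotypes. Mcts2 and Zrsr1 share transcribed sequence with their parent genes, and the placement of reads that match both is not given here.

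Nnat, neuronatin, a small membrane protein of the endoplasmic reticulum, lies at chr2:157560078-157562525 inside Blcap. Its window was among the steadiest of the 7, with a coefficient of variation of 12.0%: 4158, 4517 and 5191 covered bp in KO libraries, 3735, 3817 and 3991 bp in HxD libraries, and 3706, 4354 and 4789 bp in WT libraries. Every KO library lay above every HxD library, and both overlapped WT. The region at the Nnat start covered 1165, 1357 and 1375 bp in KO, 1147, 1179 and 1293 bp in HxD, and 1388, 1246 and 1653 bp in WT. KO lengths there lay within or below the range of WT, while the fold enrichment was 18.1, 13.9 and 11.6 in KO, against 4.56, 7.59 and 11.2 in HxD and 5.38, 4.74 and 4.11 in WT, so that every KO value exceeded every value of the other genotypes. Within the gene a shorter region covered 486, 1008 and 1311 bp in KO, 567, 671 and 505 bp in HxD, and 587, 984 and 940 bp in WT, where every HxD library but replicate 2 lay below every WT library. The region at the Blcap start covered 2904, 2571 and 2683 bp in KO, 2291, 1967 and 2346 bp in HxD, and 1744, 2349 and 2638 bp in WT, with every KO above every HxD library. The separation of the whole Nnat window between KO and HxD thus included peaks at the host's own promoter. With 2 kb on either side, which left that region out, Nnat held 1651, 2365 and 2938 bp in KO libraries. HxD libraries then held 1714, 1850 and 1798 bp, so the separation was lost.

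**Figure D2:**
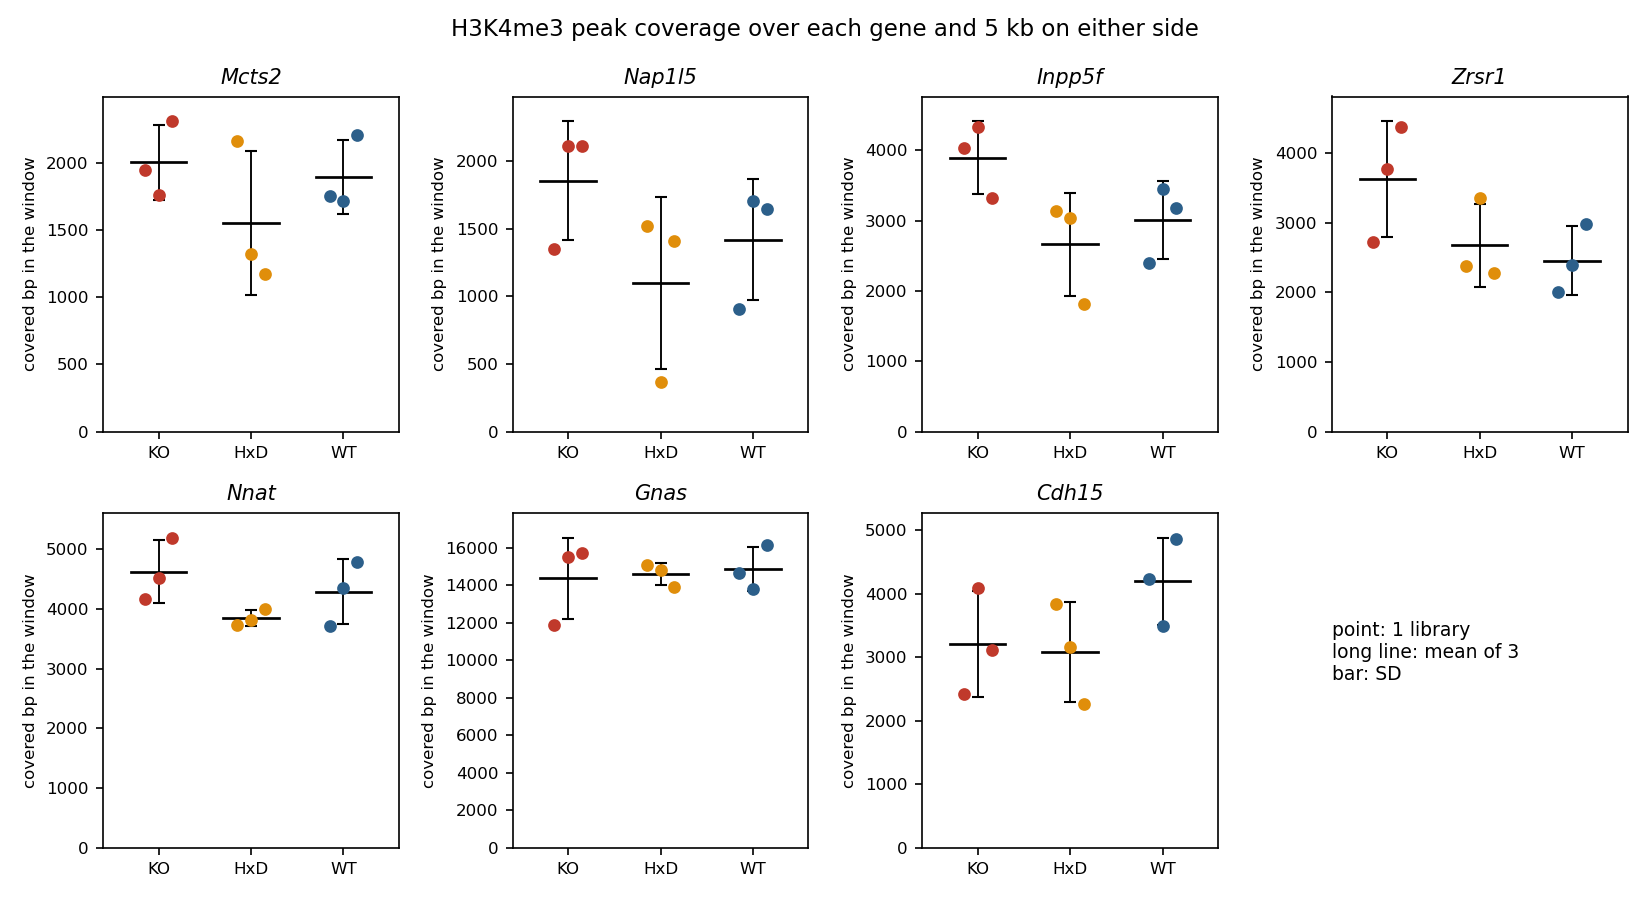
Covered bp (vertical axis) over each gene and 5 kb on either side for KO, HxD and WT; a point is 1 library, the long line the mean of 3 and the bar the SD. In each of the 7 panels the KO and WT points overlap, and KO lies above HxD without overlap for Inpp5f and Nnat.

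Inpp5f encodes an inositol phosphatase, and a second, imprinted transcript is known to start within the gene. It spans chr7:128611181-128696436. The window held 4029, 4331 and 3322 covered bp in KO libraries, 3143, 3031 and 1819 bp in HxD libraries, and 2393, 3456 and 3179 bp in WT libraries, with every KO library above every HxD library. Of its 6 regions, 2 had peaks in all 9 libraries. The one at the annotated start separated all 3 genotypes: 2352, 2457 and 2210 bp in KO, 1287, 1443 and 1273 bp in HxD, and 1728, 2195 and 2179 bp in WT. KO was highest and HxD lowest in every library, although KO replicate 3 exceeded WT replicate 2 by only a few bp. Fold enrichment there was 17.7, 17.8 and 31.9 in KO, 11.4, 11.8 and 9.02 in HxD, and 9.74, 12.0 and 20.7 in WT. The second region, 75983 to 78148 bp into the gene, lay toward its 3′ end, and whether it is the known internal start was not determined. It covered 625, 1874 and 1112 bp in KO, 1856, 1339 and 546 bp in HxD, and 665, 1261 and 1000 bp in WT. Its fold enrichment was 7.12, 12.4 and 3.14 in KO, 11.4, 9.04 and 7.38 in HxD, and 4.17, 4.26 and 8.0 in WT. Lengths at this internal site varied at least as much within as between genotypes.

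Cdh15, M-cadherin, a cell adhesion protein of muscle, spans chr8:122848374-122867397 and is known for a methylated region inside the gene set in the oocyte. Its window held 2417, 4086 and 3119 covered bp in KO libraries, 3836, 3161 and 2267 bp in HxD libraries, and 4234, 3494 and 4869 bp in WT libraries. WT was highest on average, and the genotypes overlapped. The annotated start carried a peak in KO replicate 2, HxD replicate 1 and WT replicates 2 and 3, of 562, 630, 583 and 920 bp. The region present in all 9 libraries inside the gene lay 15786 to 17704 bp from the start and covered 1406, 1300 and 1340 bp in KO, 1626, 1504 and 992 bp in HxD, and 1655, 1391 and 1672 bp in WT. Its fold enrichment was 15.4, 11.7 and 5.81 in KO, 9.44, 13.9 and 3.94 in HxD, and 11.6, 13.4 and 16.4 in WT. A region at the start of the neighbouring Gm39273, within the window, covered 1011, 1762 and 1779 bp in KO, 1580, 1657 and 1275 bp in HxD, and 1659, 1520 and 1739 bp in WT. Another region inside the gene had peaks in KO replicate 2 and WT replicates 1 and 3, of 462, 609 and 538 bp. The mark at Cdh15 thus lay in the gene body more steadily than at the start, and without separation of genotypes.

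Gnas encodes the stimulatory G protein alpha subunit, which activates adenylyl cyclase. The locus, chr2:174284320-174346744, has several promoters known from the mouse: Nesp first, then Gnasxl beside the antisense transcript Nespas (Gnasas1 in RefSeq), then exon 1A, then the Gs-alpha promoter. In a window of 72425 bp, it held 14614 covered bp on average, 20.2% of the window, where Nnat held 34.1%, Zrsr1 20.1%, Mcts2 16.8%, Nap1l5 12.3%, Cdh15 12.1% and Inpp5f 3.35% of theirs. The covered bp, not scaled to length, ranked at percentile 99.7 of the genes tested, and its coefficient of variation of 8.81% was at percentile 0.590 of the 24425 genes with a peak in all 9 libraries, whose median was 27.2%. The window held 11877, 15514 and 15740 bp in KO libraries, 15074, 14797 and 13929 bp in HxD libraries, and 14656, 13806 and 16135 bp in WT libraries. KO replicate 1 was lowest and the rest lay close together.

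**Figure D3:**
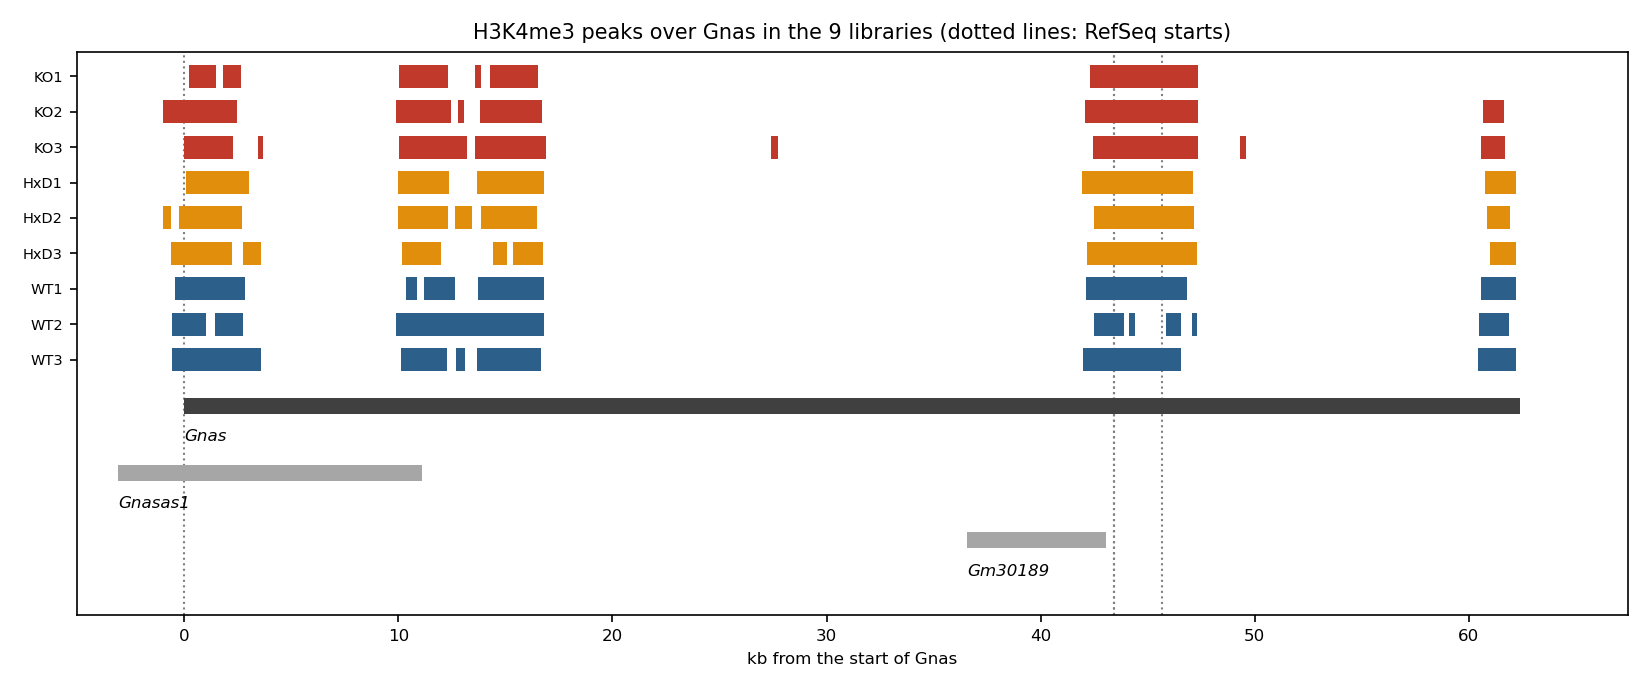
Peaks of the 9 libraries (rows; KO red, HxD orange, WT blue) over Gnas against distance in kb from its first start, with Gnasas1 and Gm30189 as grey bars and RefSeq starts as dotted lines. Broad peaks lie at the first start, over the 5′ end of Gnasas1, and over the starts near 43.4 and 45.7 kb, and shorter ones at the 3′ end in 8 of 9 libraries.

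Along Gnas, 4 regions carried peaks in at least 3 libraries. At the first start, that of Nesp, coverage was 2075, 3443 and 2544 bp in KO, 2941, 3320 and 3695 bp in HxD, and 3256, 2889 and 4177 bp in WT, with overlap. Fold enrichment at that start was 10.7, 13.5 and 15.8 in KO, 9.83, 10.5 and 10.4 in HxD, and 9.99, 11.6 and 17.1 in WT, with every KO value above every HxD value. The broadest region, 9893 to 16903 bp from the start and over the 5′ end of Gnasas1, covered 4784, 5788 and 6484 bp in KO, 5538, 5715 and 3869 bp in HxD, and 5040, 6906 and 5589 bp in WT, again with overlap. Its fold enrichment was 16.9, 17.2 and 21.7 in KO, 20.0, 14.8 and 14.5 in HxD, and 8.97, 13.4 and 13.1 in WT. In both mutants every fold value exceeded every WT value.

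The region over the starts at 43.4 and 45.7 kb, the positions of exon 1A and Gs-alpha, covered 5018, 5280 and 4911 bp in KO and 5176, 4698 and 5155 bp in HxD, against 4701, 2600 and 4576 bp in WT. Every KO library lay above every WT library, and HxD replicate 2 fell just under the highest WT library. WT replicate 2 was far below the others, with 0 of 300 bases covered at the start farthest downstream, where each of the other 8 libraries had all 300. Fold enrichment there was 21.2, 21.6 and 20.4 in KO and 23.3, 22.4 and 16.2 in HxD, against 16.0, 8.78 and 14.2 in WT. At the 3′ end of the gene the order was reversed, with 0, 1003 and 1123 bp in KO, 1419, 1064 and 1210 bp in HxD, and 1659, 1411 and 1793 bp in WT. Every KO library lay below every WT library there. These opposite differences along the gene do not appear in the sum over the window.

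**Figure D4:**
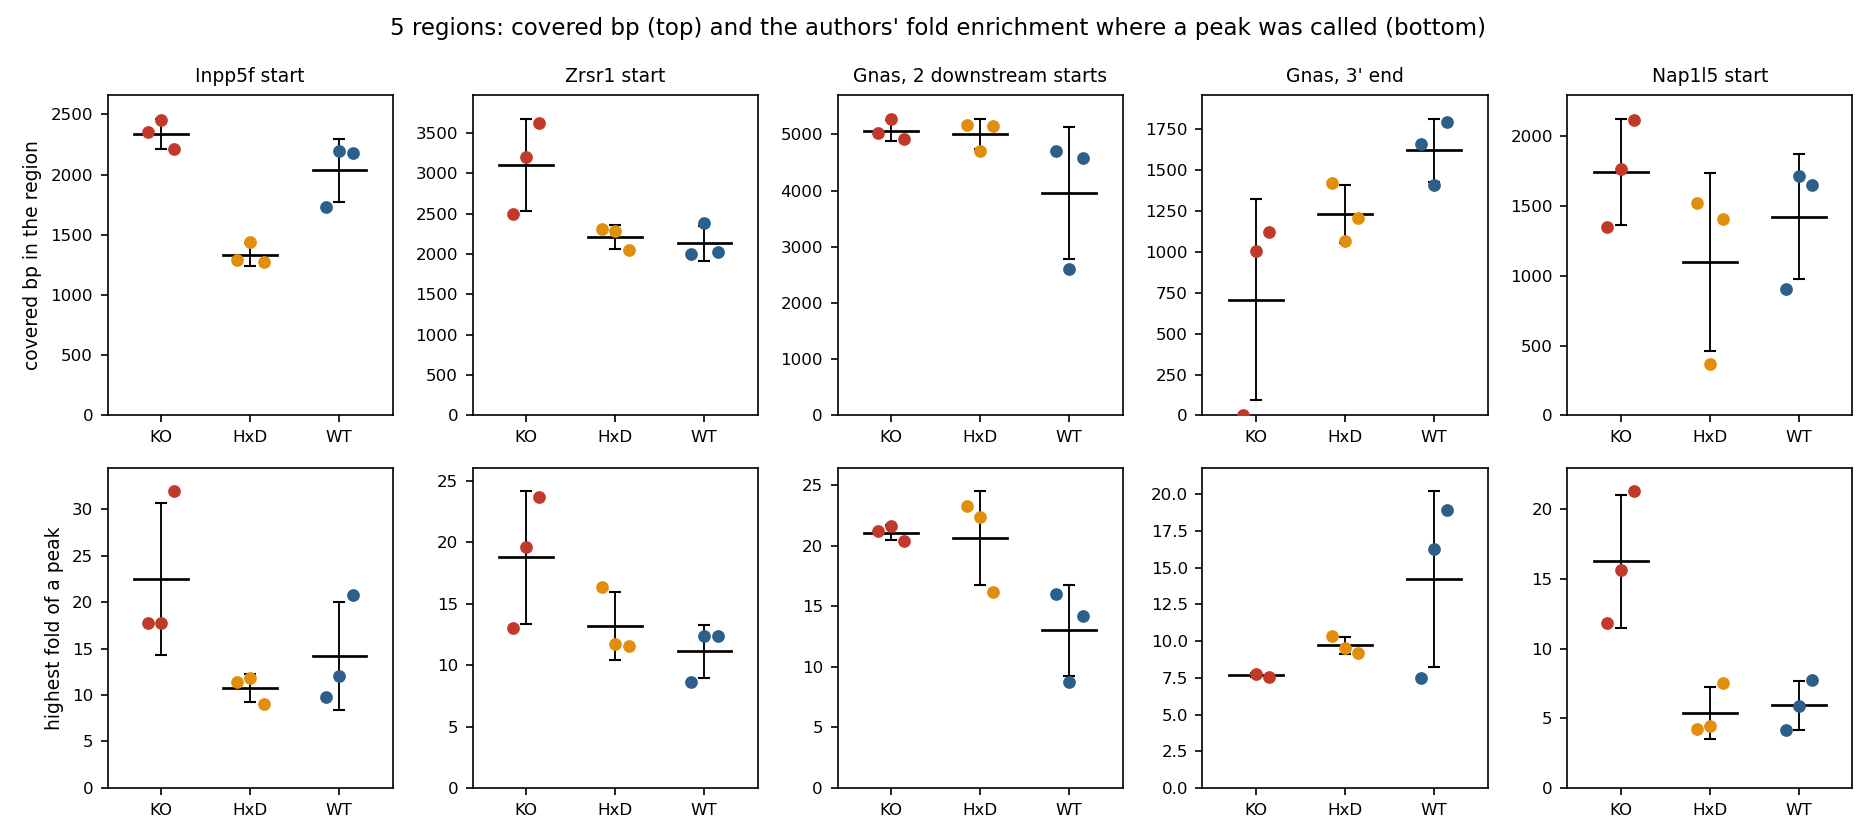
Covered bp (top row) and the authors' highest fold enrichment (bottom row) of 5 regions for KO, HxD and WT; a point is 1 library, the line the mean and the bar the SD over the libraries drawn, and a library without a peak has no point in the bottom row. KO lies above WT in bp at the Inpp5f, Zrsr1 and downstream Gnas starts and below it at the Gnas 3′ end, and above WT in fold at Nap1l5.

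For the loss of TET1, no gene of the 7 passed the test of KO against WT. The test was limma on covered bp over all 9 libraries, with Benjamini-Hochberg adjustment over the 34675 genes at a threshold of 0.05, and it called 0.164% of genes higher (57) and 4.66% lower (1617) in KO. Zrsr1 came nearest, with 3619 ± 832 bp in KO and 2452 ± 492 bp in WT (SD, n = 3 each), a difference of 1167 ± 543 bp (SE) and an adjusted p of 0.223 by limma. The Inpp5f difference was 884.7 ± 545 bp (adjusted p = 0.362 by limma), with 3894 ± 518 bp in KO and 3009 ± 551 bp in WT. The Cdh15 difference was -991.7 ± 620 bp (adjusted p = 0.369 by limma), with 3207 ± 838 bp in KO and 4199 ± 688 bp in WT. For Nap1l5, Nnat, Mcts2 and Gnas the differences were 435.0, 339.0, 110.7 and -488.7 bp, with adjusted p of 0.569, 0.776, 0.901 and 0.939 by limma. The Gnas interval, -6111 to 5134 bp, was wide because limma takes part of a gene's spread from genes with as much coverage. Of the 7, 5 had a higher mean in KO, with a median difference of 339.0 bp, where 35.6% of all genes tested were higher and their median was -234.0 bp. Among genes with a peak in all 9 libraries, as all 7 had, 43.3% were higher and the median was -121.7 bp. The Mcts2 difference turned to -135.3 bp with lists of equal length.

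With each library centred on its mean over all genes, Zrsr1 passed the test, with a difference of 1518 bp and an adjusted p of 0.0419 by limma, where the range over all alternatives was 0.0419 to 0.503. It was higher than the WT mean in 3 of 3 KO libraries. Centring also changed the balance of the calls over all genes, to 1343 higher and 1262 lower, and lists of equal length gave 490 higher and 463 lower. No window of the 7 separated all KO from all WT libraries (4.83% of genes were above and 19.2% below). The main Commd1 start lay outside the 5 kb window of Zrsr1, which reached only the edge of the region there. With 2 kb in place of 5 kb on either side, the Zrsr1 window excluded that edge and held 2495, 3207 and 3622 bp in KO, against 1997, 2386 and 2025 bp in WT, with no overlap.

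The windows of the 7 genes overlapped 29 regions, of which 17 had peaks in at least 3 libraries and 14 in all 9. Of the 17, 3 were broader in every KO than in any WT library, at the starts of Inpp5f and Zrsr1 and over the downstream Gnas starts, where 2.39% of all 81071 such regions were broader. For the 14 regions in all 9 libraries, all 3 being among them, the share over all regions was 5.29%. The Gnas 3′ region was narrower in every KO than in any WT library, and so were 27.7% of all regions. None of the 17 was present in all libraries of one genotype and absent from the other (0.258% of regions were gained in KO and 8.38% lost). In limma on regions, added after the data were seen, none of the 17 passed, where 0.474% of regions were called higher and 12.2% lower. The Zrsr1 start region differed by 972.0 ± 334 bp (adjusted p = 0.0701 by limma), the Gnas 3′ region by -912.3 ± 311 bp (adjusted p = 0.0679), the downstream Gnas starts by 1111 ± 573 bp (adjusted p = 0.210) and the Inpp5f start by 305.7 ± 269 bp (adjusted p = 0.465). Leaving out 1 library at a time gave adjusted p of 0.0558 to 0.223 for the Zrsr1 start, 0.0614 to 0.226 for the Gnas 3′ region, 0.162 to 0.694 for the downstream Gnas starts and 0.468 to 0.824 for the Inpp5f start. The difference was 431.2 bp at the downstream Gnas starts without WT replicate 2, 152.7 bp at the Inpp5f start without WT replicate 1 and -558.0 bp at the Gnas 3′ region without KO replicate 1. With stricter peaks and with lists of equal length, all 4 regions stayed separated. Equal lists dropped more peaks from every WT library than from any KO library. The share of all regions that separated under these settings was not computed. Over all regions 10250 were called, and 0 once KO replicate 1 or 3 was left out.

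The highest fold enrichment was above WT in every KO library in 3 of the 7 windows, Nap1l5, Zrsr1 and Gnas, and in 20.8% of the 24425 windows with a peak in all 9 libraries. The same held for 6 of the 14 regions, at the starts of Nap1l5, Zrsr1, Commd1 and Nnat and over the Gnasas1 5′ end and the downstream Gnas starts, and for 14.5% of all regions in 9 libraries. In the Zrsr1 window the highest KO folds were those of peaks at the main Commd1 start. The corresponding peaks of WT replicates 1 and 2 lay outside that window. No member window (3.92% of windows) and no member region (6.1% of regions) had a lower fold in every KO library. The median fold over a whole list was 5.86 to 7.36 in KO, 7.06 to 7.24 in HxD and 6.84 to 6.96 in WT.

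**Figure D5:**
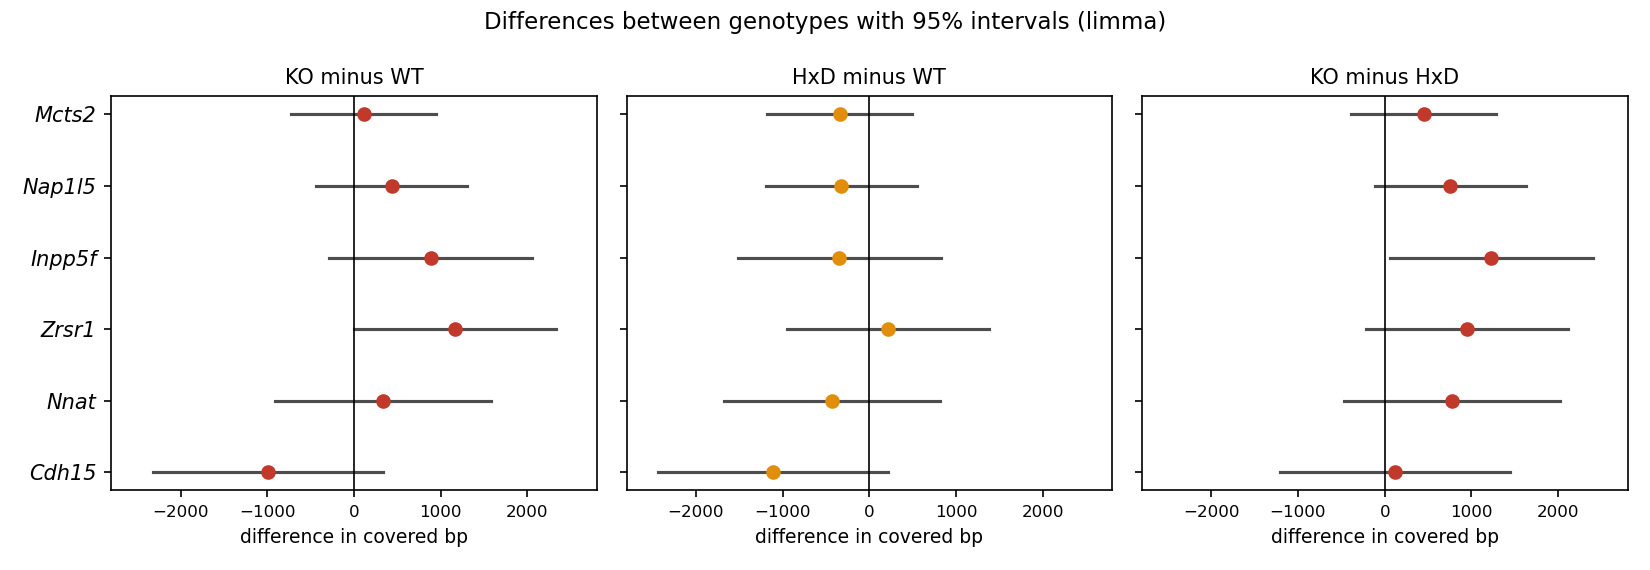
Difference in covered bp (horizontal axis) between genotypes for 6 genes, with 95% intervals from limma; Gnas is left out because its interval is several times wider. Of the 6 points, 5 are right of 0 for KO minus WT, 1 for HxD minus WT and all 6 for KO minus HxD, and all intervals but those of Zrsr1 for KO minus WT and Inpp5f for KO minus HxD include 0.

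For the HxD mutant, which tests the altered catalytic motif, no gene of the 7 passed against WT, where limma called 0.0144% of genes higher (5) and 5.71% lower (1981). Of the 7 means, 6 were lower in HxD, with a median difference of -340.3 bp, beside 21.1% of all genes higher and a median of -415.7 bp. Among genes with a peak in all 9 libraries, 26.3% were higher and the median was -369.3 bp. The Cdh15 difference was the largest of the 7, -1111 ± 620 bp (adjusted p = 0.294 by limma), with 3088 ± 787 bp in HxD and 4199 ± 688 bp in WT (SD, n = 3 each). Nnat differed by -435.3 bp (adjusted p = 0.696), Inpp5f by -345.0 bp (0.748), Mcts2 by -340.3 bp (0.642), Nap1l5 by -323.7 bp (0.675), Gnas by -265.7 bp (0.968) and Zrsr1 by 219.3 bp (0.846). Centring the libraries takes the mean difference of all genes, -606.1 bp, from every gene alike, so the differences of Mcts2, Nap1l5, Inpp5f, Nnat and Gnas, being smaller than that mean, turned positive. Centring gave 480 higher and 827 lower calls over all genes, and lists of equal length 17 and 62.

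No window of the 7 separated HxD from WT (1.61% of genes were above and 25.7% below). No region of the 17 was broader in every HxD than in any WT library (1.13% of regions, and 2.66% of those in all 9 libraries), and 1 was narrower (29.5% and 18%), the Inpp5f start. It averaged 1334 ± 94.4 bp in HxD and 2034 ± 265 bp in WT, a difference of -699.7 ± 269 bp (adjusted p = 0.111 by limma on regions, 0.0912 to 0.338 when 1 library was left out). That separation was lost with lists of equal length. None of the 17 passed, where 0.0728% of regions were called higher and 9.81% lower, 8014 in all, and 0 once any 1 HxD replicate was left out. The downstream Gnas starts averaged 5010 ± 270 bp in HxD and 3959 ± 1179 bp in WT, a difference of 1051 ± 573 bp (adjusted p = 0.241 by limma on regions), 371.2 bp without WT replicate 2. No region was gained or lost between HxD and WT (0.0814% and 8.16% of all regions). In fold enrichment, the Nnat window was above WT in every HxD library (10.2% of windows), as were the regions at the Blcap start, the Gnasas1 5′ end and the downstream Gnas starts (3 of 14, and 7.95% of regions). None was below WT in every HxD library (6.46% of windows and 7.93% of regions). The HxD values of the Nnat window were those of the peaks at the Blcap start, so these are the same observation. At the Nnat start itself the HxD and WT folds overlapped.

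The mutants were set against each other to ask where absence of TET1 differs from the altered motif. Limma called 0 genes higher (0%) and 0 lower (0%) in KO against HxD, with 1152 genes at an unadjusted p under 0.05 and 1 gene called on log2(covered bp + 200). Inpp5f had the largest difference of the 7, 1230 ± 545 bp (unadjusted p = 0.0404, adjusted p = 1 by limma), with 3894 ± 518 bp in KO and 2664 ± 734 bp in HxD. The other differences were 947.7 bp for Zrsr1, 774.3 bp for Nnat, 758.7 bp for Nap1l5, 451.0 bp for Mcts2, 119.3 bp for Cdh15 and -223.0 bp for Gnas, each with an adjusted p of 1 by limma. Of the 7 means, 6 were higher in KO, as were 71.1% of all genes and 76.0% of those with a peak in all 9 libraries. Of the 7 windows, 2 separated with KO above, Inpp5f and Nnat (7.32% of genes), and none below (0.767%). The Nnat separation was lost with 2 kb flanks, which left out the Blcap start. Of the 17 regions, 3 separated with KO above (3.52% of regions), at the Inpp5f, Zrsr1 and Blcap starts, and none below (1.55%); among regions in all 9 libraries the shares were 5.55% and 1.53%. The Inpp5f start region averaged 2340 ± 124 bp in KO and 1334 ± 94.4 bp in HxD, a difference of 1005 ± 269 bp (unadjusted p = 0.00214, adjusted p = 1 by limma on regions), and it stayed separated with stricter peaks and with lists of equal length. At the Zrsr1 start the means were 3108 ± 570 bp in KO and 2215 ± 147 bp in HxD, a difference of 893.3 ± 334 bp (adjusted p = 1). Limma on regions called 0% in each direction, with 2252 regions at an unadjusted p under 0.05. No region was gained or lost (0.628% and 0.352% of all regions). The fold was above HxD in every KO library in 2 windows, Nap1l5 and Inpp5f (10.2% of windows), and in 4 of 14 regions (8.4% of regions), with none below (1.4% of windows and 2.24% of regions). These comparisons share libraries, so their differences are not independent of each other.

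Host and parent genes gave no call either. Commd1 had the largest difference among hosts for KO against WT, 1533 ± 740 bp (adjusted p = 0.240 by limma), with 5095 ± 1302 bp in KO and 3562 ± 948 bp in WT, in a window that contains Zrsr1. Herc3 had the largest for HxD against WT, -1416 ± 736 bp (adjusted p = 0.259 by limma). H13, Blcap and Gnasas1 had adjusted p of 0.659 or more in both comparisons with WT. Mcts1, the parent of Mcts2, held 636.7 ± 751 bp in KO, 831.7 ± 213 bp in HxD and 580.3 ± 118 bp in WT. Zrsr2, the parent of Zrsr1, held 2448 ± 1164 bp in KO, 1807 ± 544 bp in HxD and 1331 ± 940 bp in WT. Its KO difference of 1117 ± 594 bp had an adjusted p of 0.288 by limma (0.0257 to 0.593 over the alternatives).

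Among 23 other genes at maternally methylated imprinted regions, Snrpn alone passed a test, in HxD against WT (5.71% of all genes were called lower). It encodes a spliceosomal protein at the Prader-Willi locus, and averaged 5751 ± 1918 bp in HxD and 15479 ± 4217 bp in WT (SD, n = 3 each), a difference of -9728 ± 2188 bp with an adjusted p of 0.0237 by limma (0.00239 to 0.143 over the alternatives). In KO it averaged 8896 ± 3159 bp, -6582 ± 2188 bp from WT (adjusted p = 0.0943 by limma, and 0.0257 at the lowest among the alternatives). Both differences are sums over the whole Snrpn window. Snurf, listed separately, differed from WT by -340.3 bp in HxD (adjusted p = 0.7175 by limma) and by 638.3 bp in KO (adjusted p = 0.470 by limma). Of the 23, 5 were higher and 18 lower in KO than in WT, with a median difference of -522.3 bp, and 2 were higher and 21 lower in HxD than in WT, with a median of -729.3 bp. Over all genes tested, 35.6% were higher in KO and 21.1% in HxD, with medians of -234.0 and -415.7 bp. The windows of the 7 genes described here had medians of 339.0 and -340.3 bp in those comparisons. Whether the lists differ was not tested. After Snrpn, Usp29 had the largest negative differences, -2701 bp in KO and -4905 bp in HxD. In KO the largest positive ones were 638.3 bp for Snurf and 559.3 bp for Copg2. For Copg2 the adjusted p was 0.526 by limma (0.0391 to 0.910 over the alternatives). In HxD the largest positive ones were 266.0 bp for Peg12 and 199.0 bp for Peg13. For KO against HxD the extremes were 3146 bp for Snrpn and 2204 bp for Usp29, and -780.3 bp for Peg10 and -457.7 bp for Sgce, none of which passed.

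Over the 9 libraries, each centred on its mean, the genes whose covered bp followed each member most closely, at least 1 Mb away, were Ubxn2b (Pearson r = 0.974) and Ap4e1 (0.971) for Mcts2, and Hsbp1 (0.931) and Mdm2 (0.930) for Nap1l5. For Inpp5f they were Gm29952 (0.969) and Fjx1 (0.955), for Zrsr1 H3c6 (0.954) and 4930528A17Rik (0.954), and for Nnat Gm22614 (0.940) and Apol7d (0.940). For Gnas they were Npcd (0.936) and Gm46230 (0.936), and for Cdh15 1700026D11Rik (0.937) and Gm33799 (0.927). For each member these are the highest over all genes tested that lay far enough away, across the same 9 libraries, and they are a description with no test.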

How the data were processed

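H3K4me3 CUT&RUN peak lists of 9 libraries were used; the 9 IgG samples were not used here. The authors deposited a narrow peak list for every library; calls were thus made sample by sample. Per the submitters' processing notes, the build was mm10, and MACS2 2.1.0, Bowtie2 2.5.0, Trim Galore, deepTools 3.5.1, SAMtools 1.16.1 and bedtools 2.27.1 were used. No source used here gives the control of the calls. The deposited fold enrichment is a linear ratio at the summit and the deposited −log10 q a significance per peak; both are the authors' values. The lists hold no counts, so read depth is unknown, and covered bp can move with how much was called.

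Peaks of the 19 autosomes and both sex chromosomes were merged within each library, and covered bp were summed over each RefSeq gene (GRCm38.p6, the mm10 assembly; 1-based) and 5 kb on either side. Genes with a peak in at least 3 libraries were tested with limma 3.58.1 (R 4.3.3): genotype was the only term of a linear model of covered bp fitted to the 9 libraries together, with a trended eBayes prior, and p was adjusted by Benjamini-Hochberg with 0.05 as threshold. This procedure was tested on simulated data. Regions are peaks of all libraries merged; an overlap of 1 bp counted as presence. With 3 libraries against 3, an exact permutation test could not go below p = 0.1, so none is given for single values. Alternatives were log2(covered bp + 200), no filter, 2 kb flanks, peaks with −log10 q of at least 5, lists of equal length (49624 peaks), centred libraries, a replicate block and each library left out; fits on regions and the separation of regions under alternatives were added after the data were seen. Named genes were the members, their hosts and parents, the other imprinted genes past the threshold or otherwise the 2 largest differences in each direction, and the 2 genes most like each member. The members and lists were chosen with earlier results of these data known.

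Replicate numbers were checked for pairing across genotypes. No library was a copy of another: pairs of lists shared at most 6 identical peaks.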

Additional observations from a re-analysis of the deposited data

How the results depend on the processing

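Of 336 values of the 7 genes under alternatives, 310 kept their direction and side of the threshold, 25 changed sign and 1 newly passed (Zrsr1, KO against WT, centred libraries, 1518 bp); no other gene of the 7 passed under any alternative, so centring alone moved the number called from 0 to 1. In KO against WT, Mcts2 turned to -135.3 bp with lists of equal length. In HxD against WT, equal lists gave 308.0 bp for Nap1l5, 578.0 bp for Inpp5f, 1365 bp for Nnat and 514.3 bp for Gnas, and centred libraries 265.8 bp for Mcts2, 282.4 bp for Nap1l5, 261.1 bp for Inpp5f, 170.8 bp for Nnat and 340.4 bp for Gnas. In KO against HxD, stricter peaks gave 356.7 bp for Gnas and centred libraries -135.9 bp for Cdh15. With 1 library left out, signs turned within the ranges -41.3 to 268.0 bp for Mcts2 and -1170 to 761.3 bp for Gnas in KO against WT. In HxD against WT the ranges were -582.2 to 42.5 bp for Nap1l5, -653.2 to 77.7 bp for Inpp5f, -121.8 to 480.2 bp for Zrsr1 and -795.5 to 369.0 bp for Gnas, and in KO against HxD -904.5 to 1027 bp for Gnas and -320.0 to 514.5 bp for Cdh15. Other differences kept their sign but moved by over 1.5 times. In KO against WT the ranges were 176.5 to 689.0 bp for Nap1l5 (lowest without WT replicate 1, highest without KO replicate 1), 576.5 to 1171 bp for Inpp5f (lowest without WT replicate 1), 50.5 to 592.0 bp for Nnat (without WT replicates 1 and 3) and -1431 to -596.5 bp for Cdh15 (smallest without KO replicate 1). In HxD against WT they were -644.8 to -150.8 bp for Mcts2 (without HxD replicates 1 and 3), -723.8 to -182.3 bp for Nnat (without WT replicates 1 and 3) and -1485 to -700.5 bp for Cdh15 (smallest without HxD replicate 3). In KO against HxD they were 261.5 to 755.5 bp for Mcts2 (without HxD replicates 3 and 1), 392.5 to 1013 bp for Nap1l5 (lowest without HxD replicate 2), 807.0 to 1516 bp for Inpp5f (lowest without HxD replicate 3), 573.3 to 1396 bp for Zrsr1 and 489.8 to 1006 bp for Nnat (both lowest without KO replicate 3). Apart from centring, which shifts every gene alike, the cause of these changes was not tested.

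Genes called in KO against WT numbered 1674, and 143 on log2, 953 with equal lists, 2605 centred, 10250 as regions and 152 to 1956 with 1 library left out. In HxD against WT they numbered 1986, and 435 on log2, 1307 with 2 kb flanks, 1034 with stricter peaks, 79 with equal lists, 1307 centred, 8014 as regions and 92 to 2685 with 1 library left out. In KO against HxD 0 became 1 on log2 and 1 centred. Equal lists gave 2 member regions gained or lost between KO and WT and 2 between HxD and WT (0 otherwise, and 0 to 1 with 1 library left out). Regions broader in every KO than in any WT library numbered 3, 5 with equal lists and 3 to 7 with 1 library left out; narrower ones 1, and 1 to 4. Regions broader in every HxD than in any WT library numbered 0, 2 with equal lists and 0 to 1 with 1 left out; narrower ones 1, 0 with equal lists and 1 to 6. For KO against HxD the ranges were 3 to 9 above and 0 to 1 below. With 1 library left out, fewer values have to differ for a region to separate. For these counts of member regions, the shares over all regions under the alternatives were not computed. Without KO replicate 1 or 3 the KO calls over genes fell to 257 and 152, and without HxD replicate 2 or 3 the HxD calls to 92 and 404; without WT replicate 1 or 3 they were 772 and 499 for KO, and 965 and 516 for HxD.

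The replicate numbers did not pair the libraries: 2 of 9 libraries correlated best with their own number. With the replicate block 1133 genes were called in KO against WT, 1388 in HxD against WT and 0 in KO against HxD, and none of the 7.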
